A study of Homo sapiens with 4 samples.

Results

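The EGF receptor family and its ligands were followed in the human glioma line U87MG after transfection of a plasmid that makes the microRNA miR-490 (PC-490) or of its control plasmid (PCDNA, PCDNA3.1 (+)). The set holds 9 genes: the receptors EGFR, ERBB2 and ERBB3 and the ligands HBEGF, AREG, EREG, TGFA, BTC and NRG1. It was chosen from earlier results of the same comparison of miR-490 with control arrays, in which HBEGF was among the lower genes, so the differences between the groups are given here as a description and not as evidence. Every probe set that the platform annotation ties to exactly 1 gene symbol was kept when that symbol was a member. This gave 36 of the 49293 probe sets and 8 of the 18132 genes, 16 sets for the 3 receptors and 20 for 5 ligands; AREG was not analysed here. RNA was taken 48 h after transfection from cells with 1 of the plasmids, and 2 arrays were run per group. Both groups carried a plasmid, so what transfection itself does to these genes cannot be seen. The labels do not say whether the replicates were separate cultures, so the spread may be technical. The level of miR-490 was not analysed here, and its overexpression is therefore unchecked.

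The EGF receptor (EGFR) and its relatives ERBB2, ERBB3 and ERBB4 are receptor tyrosine kinases of the cell surface. A ligand makes 2 receptors pair, their kinase domains phosphorylate each other's tails, and adaptors that bind there start the RAS-MAPK and PI3K-AKT pathways. ERBB2 has no known ligand of its own and ERBB3 has a weak kinase, so both act mainly as partners. The ligands are made as membrane proteins, and metalloproteases such as ADAM17 cut them free. EGFR signalling is among the pathways most often altered in glioblastoma.

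The 2 mature forms that the miR-490 gene can give are shown because they are what the plasmid was built to raise. They are RefSeq sequences (GRCh38.p14), written from the 5′ end, with the seed in capitals. The seed is the stretch from base 2 to base 8 with which a microRNA pairs to messenger RNAs. Neither seed is shared by another of the 2370 mature human miRNAs in the table. Messenger RNA sequences of the members were not searched for seed matches.
hsa-miR-490-3p, chr7:136903242-136903263, plus strand: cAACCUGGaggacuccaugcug
hsa-miR-490-5p, chr7:136903205-136903224, plus strand: cCAUGGAUcuccaggugggu

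Of the ligands, EREG and HBEGF were lower and TGFA higher in the miR-490 arrays on the brightest probe set of each, while the leading sets of EGFR and ERBB2 differed by 0.0050 and 0.04 on the log2 scale, less than the spread between replicates. None of the 36 member sets was called. In limma with Benjamini-Hochberg adjustment over all probe sets, 0 of 36 passed an adjusted p of 0.05, where 0% of all 49293 sets did (lowest adjusted p over all sets 0.8996). With 2 arrays per group, a set that misses this threshold is not shown to be equal in both. At an unadjusted p of 0.05 in limma, 3 member sets were lower and 0 higher, against 2.48% of all sets lower and 2.66% higher. Those 3 were the leading sets of HBEGF and EREG and 1 of the 8 sets of NRG1. Both miR-490 arrays lay below both controls in 7 member sets and above both in 5, where 15.6% of all sets did the first and 15.6% the second. Means were lower in 21 member sets and higher in 15. The median log2 fold change, miR-490 minus control, was -0.020 over the members and 0.00 over all sets. In what follows, a level is the deposited RMA log2 value, a difference is on the log2 scale, and the leading set of a gene is the brightest of its sets by the mean of the 4 arrays. Levels of different sets are not ranked as amounts of RNA, since probes differ in how well they bind.

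**Figure D1:**
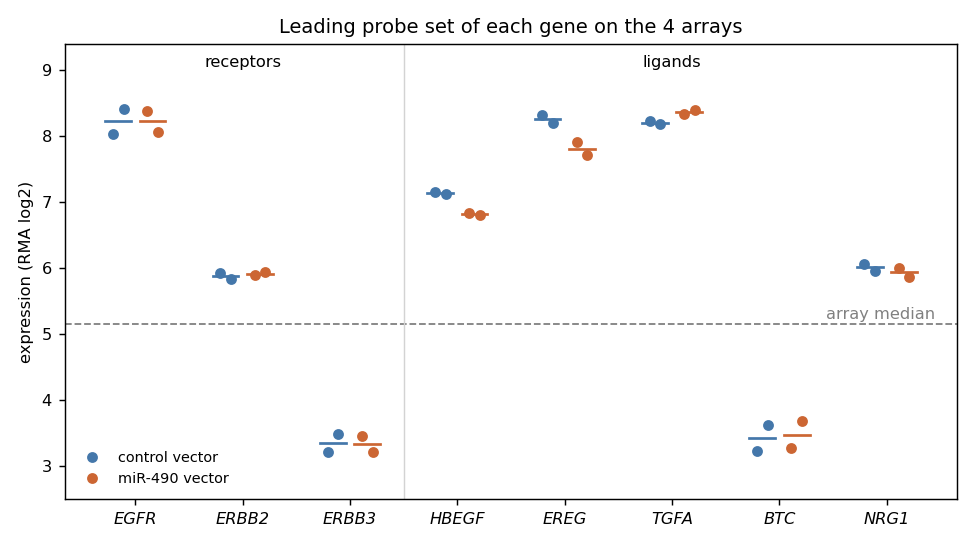
RMA log2 expression of the leading probe set of each measured member gene on the 4 arrays; points are arrays, short bars are group means, and the dashed line is the array median of 5.16. The miR-490 points of HBEGF and EREG lie below their controls and those of TGFA above, while ERBB3 and BTC lie below the array median in both groups.

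EREG encodes epiregulin, a ligand of EGFR and ERBB4. Its leading set, 11732719_at, was at 8.33 and 8.20 in the control arrays and at 7.91 and 7.71 in the miR-490 arrays. Both miR-490 arrays were below both controls, with means of 8.27 ± 0.092 and 7.81 ± 0.14 (SD, n = 2). The difference was -0.455 with a standard error of 0.10, a fold of 0.730. Among the 24637 probe sets with a mean above the array median, 14 lay as low or lower in this difference (0.0568%). The members were chosen from this same comparison, so such places, here and below, are a description and not evidence. The second set, 11732718_at, read 6.42 and 6.31 in controls against 6.35 and 5.84. Here the first miR-490 array lay between the controls and the second alone was low, so the groups overlapped. The dim sets 11732720_a_at and 11763822_at, at mean levels of 4.12 and 2.85, differed by -0.105 and 0.08. With the mean of the 4 sets in place of the leading set, the difference of EREG was -0.188.

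HBEGF encodes heparin-binding EGF-like growth factor, which binds EGFR and ERBB4 and whose membrane form is also the receptor for diphtheria toxin. Its leading set, 11719898_s_at, was at 7.15 and 7.12 in controls and at 6.84 and 6.81 with miR-490. The arrays of a group lay 0.03 apart and the groups did not overlap; the difference was -0.31 with a standard error of 0.065, a fold of 0.807. Of the sets above the array median, 85 lay as low or lower (0.345%), a place that the choice of the set already rested on. The other set, 11755981_a_at, was dimmer, at 4.56 and 4.49 against 4.45 and 4.41. It had the same order of groups and a difference of -0.095 (standard error 0.069), at a mean level of 4.48, below the array median. The mean of both sets gave -0.20. The suffix _s_at marks sets whose probes match several transcripts, _a_at sets that match several transcripts of 1 gene, and _x_at sets with probes that can also bind others.

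TGFA encodes transforming growth factor alpha, a ligand of EGFR. Its leading set, 11728302_at, was at 8.23 and 8.18 in controls and at 8.34 and 8.40 with miR-490. The next, 11728303_at, was at 6.63 and 6.48 against 6.89 and 6.71. In both sets the miR-490 arrays lay above the controls, with differences of 0.165 (standard error 0.068) and 0.245 (0.099), folds of 1.12 and 1.19. Among sets above the array median, 3.81% lay as high or higher as the first and 0.869% as the second. The other pair did not show it: 11745160_s_at was at 6.42 and 6.20 against 6.16 and 6.51, and 11745159_a_at at 5.23 and 5.18 against 5.19 and 5.26. Their groups overlapped, with differences of 0.025 and 0.020. All 4 sets had a higher mean with miR-490, and none passed at an unadjusted p of 0.05 in limma.

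NRG1 encodes neuregulin 1, a ligand of ERBB3 and ERBB4 that is made in many splice forms. Of its 8 sets 3 were above the array median, and all 3 had lower means with miR-490. The set 11727215_a_at was at 5.69 and 5.83 in controls and at 5.58 and 5.50 with miR-490, a difference of -0.22 (standard error 0.082). The set 11740347_x_at was at 5.71 and 5.88 against 5.68 and 5.58. In it the lower control and the higher miR-490 array were 0.03 apart. The leading set, 11740346_a_at, was at 6.07 and 5.95 against 6.00 and 5.87, and its groups overlapped. The 5 sets below the array median differed by -0.145 to 0.09, with 3 lower and 2 higher means. BTC, betacellulin, which binds EGFR and ERBB4, was dim. Its leading set 11762566_at read 3.22 and 3.62 in controls and 3.27 and 3.68 with miR-490. The arrays of a group thus lay 0.40 and 0.41 apart and the group means 0.055. The other set of BTC, 11740532_s_at, read 2.78 and 2.65 against 2.53 and 2.69. Its groups overlapped, with a difference of -0.105.

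**Figure D2:**
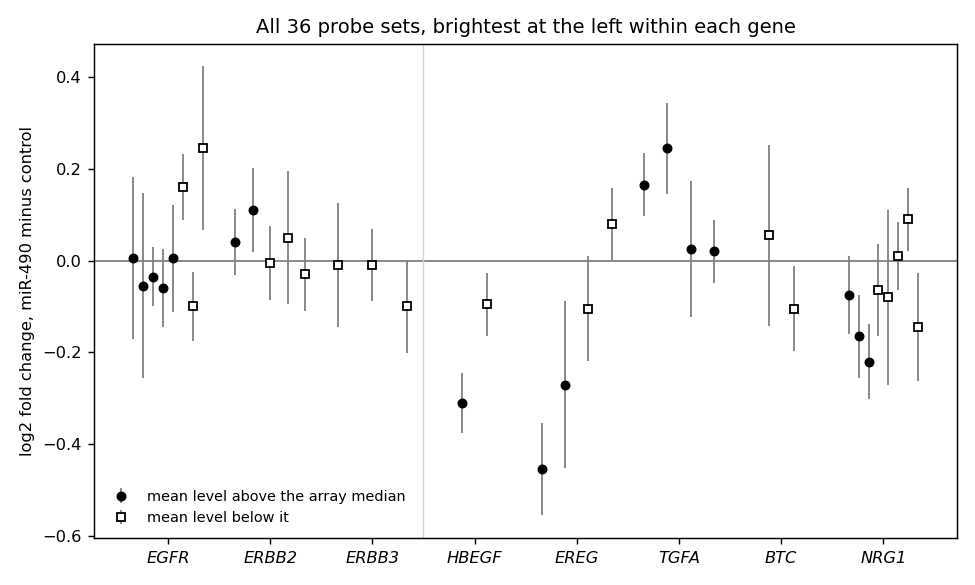
Log2 fold change, miR-490 minus control, of all 36 member probe sets, ordered by brightness within each gene; bars are the limma standard error, and filled points are sets with a mean above the array median. The 2 brightest sets of EREG and of TGFA lie on opposite sides of 0, the 4 sets of EREG and the 8 of NRG1 spread over both signs, and the dimmest sets have no common direction.

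EGFR was measured by 8 sets, 5 of them above the array median. The leading set 11725104_a_at was at 8.03 and 8.42 in controls and at 8.39 and 8.07 with miR-490. Each group thus held a high and a low array, 0.39 and 0.32 apart, and the difference of means was 0.0050 (standard error 0.18), which became -0.0050 when array medians were subtracted. The set 11751983_a_at split the arrays the same way, at 6.72 and 7.15 against 7.08 and 6.68. Of the 2 sets designed on the full-length RefSeq transcript, 11725103_s_at did not show the split, at 6.85 and 6.87 against 6.83 and 6.82. The other, 11725102_at, was at 4.48 and 4.57 against 4.71 and 4.66, a difference of 0.16. These 2 sets, designed on the same transcript, thus had differences of opposite sign, neither of which passed at an unadjusted p of 0.05 in limma. The set 11725102_at was below the array median, and the suffix of 11725103_s_at marks probes that match several transcripts. Another 3 sets were designed on transcripts of shorter, secreted receptor forms. They were 11742247_a_at, at 5.88 and 5.97 against 5.94 and 5.79, 11733760_a_at, at 5.56 and 5.59 against 5.73 and 5.43, and the dim 11738815_at, at 2.03 and 2.45 against 2.34 and 2.63. In all 3 the groups overlapped. The _a_at sets among them match several transcripts of the gene, so their values may not be those of the secreted forms alone. The last set, 11762479_at, was dim at a mean of 2.71.

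**Figure D3:**
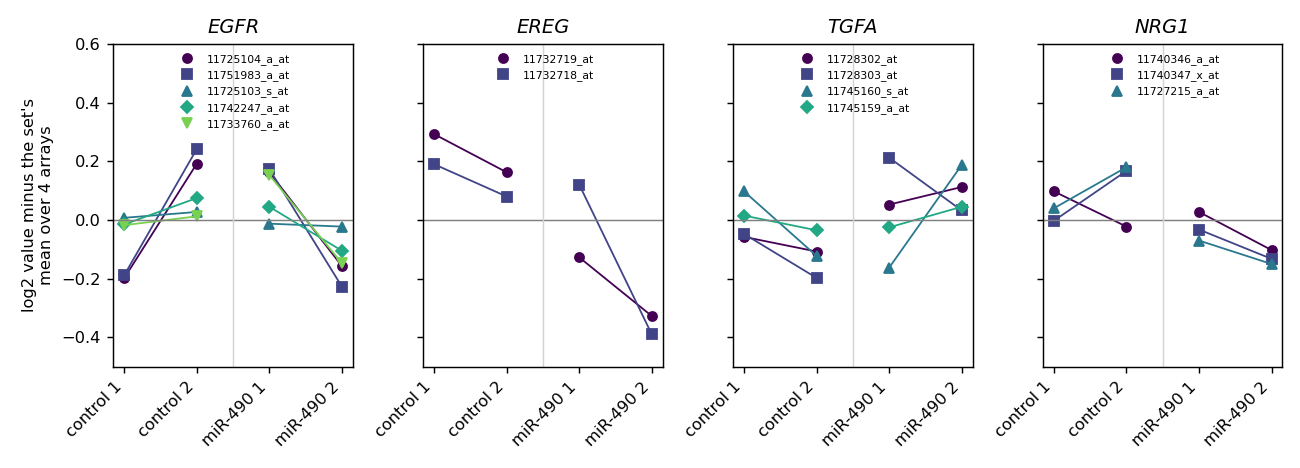
Value of each probe set above the array median of EGFR, EREG, TGFA and NRG1 on the 4 arrays, on the log2 scale with the set's own mean over the arrays subtracted; lines join the arrays of 1 group. The 2 brightest EGFR sets are low in control replicate 1 and miR-490 replicate 2, and both miR-490 arrays lie below both controls in the leading set of EREG and, by smaller differences, in 1 set of EGFR and 2 of NRG1.

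ERBB2, the partner receptor targeted in breast cancer, was at 5.92 and 5.83 in controls and at 5.89 and 5.94 with miR-490 on its leading set 11736472_a_at. Its second set, 11755005_a_at, was at 5.62 and 5.81 against 5.79 and 5.86. Both sets overlapped between groups, with differences of 0.04 and 0.11, and the 3 dimmer sets differed by -0.03 to 0.05. ERBB3, the neuregulin receptor, was dim on all 3 sets. Its leading set 11734393_at read 3.21 and 3.48 in controls and 3.46 and 3.21 with miR-490, with differences of -0.10 to -0.01 over the sets. In none of the 8 ERBB2 and ERBB3 sets were the groups apart, where 31.2% of all sets were.

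The part of the family outside the set was dim. ERBB4, EGF, EPGN, NRG2, NRG3 and NRG4 had 23 sets, whose mean levels ran from 2.22 to 5.12, all below the array median. On 1 set per gene, 3 of these 6 genes had lower and 3 higher means, with differences of -0.175 to 0.105. Bulk arrays read the RNA of the whole culture, so fewer cells that make a transcript and less of it per cell cannot be told apart. Markers of the mesenchymal state of U87MG were bright: VIM, CD44, FN1, SPARC and TNC had mean levels of 11.87 to 13.92. CDKN2A, CDKN2B and MTAP, of the 9p21 region that this line is known to have lost, had mean levels of 2.98 to 4.62, below the array median. Of 5 glial markers 1, GFAP, was above the array median, at 5.56 to 5.81, though U87MG is known to make little of it. OLIG2, S100B, SOX2 and AQP4 had mean levels of 2.72 to 4.87, below the array median. Of 7 epithelial markers, whose cells make much of these ligands, 1, CLDN4, was above the array median, and the levels of the list summed to 29.14 and 29.18 in controls and to 29.00 and 29.22 with miR-490. Of 5 leukocyte markers measured, 1 was above the array median, CD68, which lysosomes of many cells hold, and PTPRC was at 2.43 to 2.62. The summed log2 level of the leukocyte list was 22.83 and 22.93 in controls and 22.26 and 22.51 with miR-490. PTPRC, CD14, CD3E and ITGAM had mean levels of 2.535 to 3.38, below the array median, so this sum does not measure a share of cells. A part of such cells in the lower ligand values was not tested. Of 4 endothelial markers 1, VWF, was just above the array median at a mean of 5.29.

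The genes around the receptor were described by 7 lists holding 101 genes, of which 90 were measured on 1 probe set each. With limma and adjustment over all 18132 genes, 0 of the 90 passed, where 0% of all genes did. At an unadjusted p of 0.05 there were 6 lower and 4 higher, 11.1% of the 90, against 6.18% of all genes in either direction. The lists were chosen with earlier results of these data known, so these shares are a description and not evidence. Among these genes, ERBB4 and STAT5A on the lower side and LRIG2 and LRIG3 on the higher were below the array median. Of the 90 genes 47 had lower and 40 higher means, and the median difference was -0.010, against 0.0050 over all genes, of which 48.5% were lower.

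Proteases and partners of the ligands numbered 12, with 5 lower, 7 higher and a median of 0.010. CD9, a tetraspanin that binds the membrane form of HB-EGF, was at 9.24 in both controls and at 9.03 and 8.98 with miR-490, a difference of -0.235. Of its 8 other sets 6 were also negative, the range being -0.355 to 0.075. RHBDF2, which brings ADAM17 to the cell surface, differed by -0.12 and ADAM10 by -0.11, while both other sets of RHBDF2 were positive. ADAM17, the main sheddase of HBEGF, TGFA and EREG, was at 9.21 and 9.13 against 9.18 and 9.10.

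Receptor brakes and sorting factors numbered 18, with 12 lower, 6 higher and a median of -0.038. LRIG1, which lowers receptor levels, was at 9.47 and 9.30 in controls and at 9.16 and 9.17 with miR-490, a difference of -0.22, and its other set gave -0.19. SPRY2, a feedback inhibitor, was at 8.33 and 8.31 against 8.18 and 8.10. CBL, the ubiquitin ligase of activated EGFR, was at 7.06 and 7.13 against 7.22 and 7.21. The other 3 sets of CBL ran from -0.125 to 0.12. The leading sets of the dim LRIG2 and LRIG3, of the same family as LRIG1, lay on the higher side, both below the array median. LRIG2 was at 4.25 and 4.02 against 4.52 and 4.40, and LRIG3 at 3.99 and 4.16 against 4.35 and 4.29. The other sets of LRIG3 did not show it, with differences of -0.02, 0.03 and -0.09 and overlapping groups.

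Transcripts known to be induced by EGFR signalling numbered 16 measured, with 10 lower, 5 higher and 1 equal, and a median of -0.065. The members farthest from 0 lay on the higher side. EGR1 was at 6.87 and 7.0 in controls and at 7.37 and 7.31 with miR-490, and FOS at 6.12 and 6.19 against 6.46 and 6.53. The other sets of FOS gave 0.48 to 0.67, and those of EGR1 -0.095 to 0.59. MYC was lower, at 8.29 and 8.32 against 8.08 and 8.15.

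Adaptors and RAS-MAPK genes had 5 lower, 7 higher and 1 equal of 13 measured, with a median of 0.010, ARAF at 0.11, SOS1 at 0.08 and SOS2 at -0.08. PI3K and STAT genes had 7 lower and 4 higher of 11, with a median of -0.03, SRC at 0.135, PIK3CB at -0.09 and STAT3 at -0.075; the other sets of all 3 had the opposite sign. Other receptor kinases had 5 lower, 8 higher and 1 equal of 14, a median of 0.025, PDGFRA and PDGFRB both at 0.105 and KDR at 0.075, with overlapping groups in all 3.

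**Figure D4:**
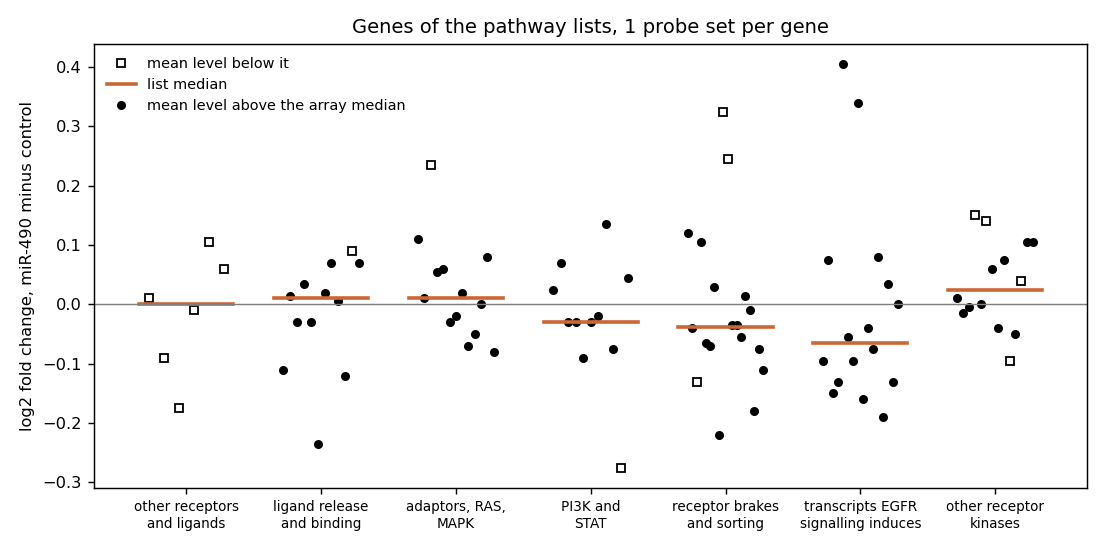
Log2 fold change, miR-490 minus control, of the genes of the 7 pathway lists, 1 probe set per gene; filled points have a mean above the array median and the bar is the list median. List medians lie between -0.065 and 0.025, and EGR1 and FOS are the 2 highest points, at 0.405 and 0.34.

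The genes whose 4 array values were most like those of HBEGF were IGFBP5, APOL6, DCN, YEATS4 and RPP40. Likeness was the Euclidean distance between the leading sets over the 4 arrays, each set centred on its own mean, among genes above the array median. IGFBP5, which binds insulin-like growth factors, was nearest at 0.0456, with levels of 5.37 and 5.28 in controls and 5.05 and 5.01 with miR-490. The fifth, RPP40, was at 0.0592. Within the family, EREG was the nearest to HBEGF at 0.201 and BTC the farthest at 0.568. With 4 arrays such distances describe these arrays only.

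EREG, AREG and BTC lie side by side on chromosome 4, next to EPGN and to a row of CXCL chemokine genes, in the RefSeq gene order of GRCh38.p14. Of 22 protein-coding neighbours, 14 before EREG and 8 after it, 21 were measured and 10 were above the array median, 8 of these with lower and 2 with higher means in the miR-490 arrays. Over all genes, dim ones included, 48.5% had lower means. This stretch was chosen after its values were seen, so its counts are a description and not evidence. CXCL2 was at 8.84 and 8.67 in controls and at 8.25 and 8.10 with miR-490, a difference of -0.58. CXCL8, CXCL1 and CXCL3 differed by -0.46, -0.51 and -0.41. Between CXCL2 and EREG lie MTHFD2L, at -0.13, and the dim EPGN, at -0.09. On the far side of the ligands RCHY1 was at 0.01, THAP6 at -0.145 and G3BP2 at -0.11. PF4V1, within the chemokine row, was at 0.29 on the higher side. The 11 neighbours below the array median had 6 lower and 5 higher means and ran from -0.265 for AFP to 0.29 for PARM1, which was at 3.51 and 3.69 in controls and at 3.85 and 3.93 with miR-490.

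**Figure D5:**
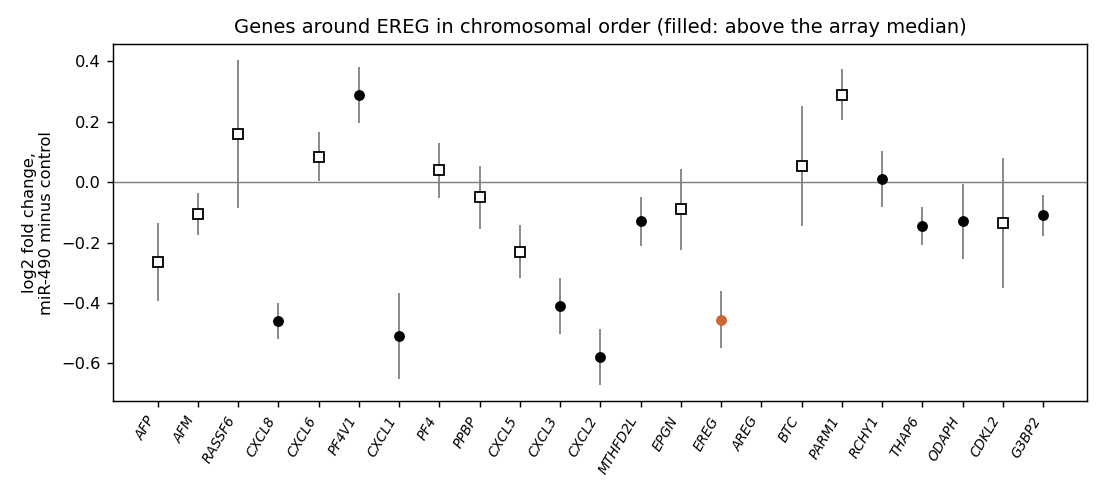
Log2 fold change, miR-490 minus control, of EREG and 22 protein-coding neighbours in chromosomal order, on 1 probe set per gene; bars are the limma standard error, filled points have a mean above the array median and EREG is coloured. EREG, CXCL8, CXCL1, CXCL3 and CXCL2 lie between -0.58 and -0.41; AREG was not analysed here.

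The stretch of 250 bases before the outermost transcription start is shown for the 3 ligands whose leading sets were apart between the groups. The sequences are RefSeq's (GRCh38.p14), written along the transcript from the 5′ end; promoters of 7 of the 9 members were matched. Capitals mark matches, on either strand, to the TATA box TATAAA, the AP-1 motif TGANTCA, the cAMP element TGACGTCA, the SP1 motif GGGCGG, the EGR1 motif GCGGGGGCG, or the NF-kB or CArG motif.
HBEGF promoter, chr5:140346604-140346853, minus strand: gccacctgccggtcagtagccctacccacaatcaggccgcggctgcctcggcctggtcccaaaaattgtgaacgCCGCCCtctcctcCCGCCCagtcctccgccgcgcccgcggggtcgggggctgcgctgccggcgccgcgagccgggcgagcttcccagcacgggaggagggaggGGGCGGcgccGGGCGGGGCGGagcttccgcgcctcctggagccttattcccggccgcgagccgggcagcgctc
EREG promoter, chr4:74364895-74365144, plus strand: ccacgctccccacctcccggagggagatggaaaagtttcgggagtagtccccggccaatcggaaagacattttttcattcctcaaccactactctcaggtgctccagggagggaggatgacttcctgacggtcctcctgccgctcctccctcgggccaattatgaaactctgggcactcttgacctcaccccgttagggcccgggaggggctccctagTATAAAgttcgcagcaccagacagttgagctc
TGFA promoter, chr2:70553827-70554076, minus strand: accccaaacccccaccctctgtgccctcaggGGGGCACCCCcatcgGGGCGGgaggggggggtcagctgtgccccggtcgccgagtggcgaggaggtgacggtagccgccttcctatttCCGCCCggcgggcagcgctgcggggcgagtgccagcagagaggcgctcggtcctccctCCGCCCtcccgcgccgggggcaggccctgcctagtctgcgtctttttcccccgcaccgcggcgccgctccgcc

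The HBEGF window held GGGCGG 5 times, at 176, 163, 73, 63 and 58 bases before the start, of which the last 2 overlap by a base. The TGFA window held it 3 times and had 1 NF-kB match, at 219 bases before the start. The EREG window held a TATA box at 32 bases before the start and none of the other motifs. Of 35116 promoter windows of this length, 42.6% held GGGCGG, 10.7% TATAAA, 5.21% an NF-kB match, 6.57% TGANTCA, 4.72% GCGGGGGCG, 1.65% TGACGTCA and 1.16% a CArG match. The HBEGF and EREG windows had no listed motif in common, and no window of NRG1 was matched. Whether the ligands with lower values share a regulator was not tested. A match is a run of letters and not a measured binding site.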

How the data were processed

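Gene expression was measured on Affymetrix PrimeView arrays, labelled from 100 ng of total RNA, with 2 arrays per vector. The authors deposited log2 values, 1 per probe set and array, from RMA (submitters' processing notes); the software behind it is not given in the sources used here. RMA makes the arrays alike (medians 5.15 to 5.17), so a shift of most transcripts cannot be seen. The number of arrays limits the precision.

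Groups and replicate numbers came from the sample titles. The members and lists were chosen with earlier results of these data known. Of 49293 probe sets, 44988 had 1 gene symbol, 1832 several and 2473 none or no entry; 44961 took current symbols from RefSeq by Entrez ID. The miR-490 arrays were compared with the controls using limma 3.58.1 under R 4.3.3 (lmFit, eBayes, 2 residual and 2.73 prior degrees of freedom), two-sided, over all probe sets, and for the lists over 1 leading set per gene (2.46 prior degrees of freedom), with no filter, Benjamini-Hochberg adjustment and a threshold of 0.05. Named were every member and, of each list, the 3 genes farthest from 0 with a mean above the array median of 5.16; ADAM17, LRIG2, LRIG3 and the marker and neighbour genes were named after their values were seen. Of 131 listed genes 119 were measured and the rest were not analysed here. The fit was tested on simulated arrays before use. Figures were drawn with matplotlib 3.10.9. Alternatives were other scalings, a variance trend, filters, the mean of a gene's sets, each array left out and the replicate number as a block.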

Additional observations from a re-analysis of the deposited data

How the results depend on the processing

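In each alternative run with limma, 0 member sets, 0 sets of the whole table and 0 genes were called. Member sets at an unadjusted p of 0.05 numbered 3 as reported, 2 to 3 with an array left out (an alternative added after the data were seen), 4 with an intensity trend and 5 of the 17 above the array median; over all sets the shares were 5.15% as reported, 3.41% to 6.18% with an array left out, 4.71% with the trend and 4.91% above the median. Deviations of same-numbered arrays correlated at -0.084 over probe sets, so the numbers did not show a pairing; with the replicate number as a block 0 sets were called, with 4 member sets and 1936 of all sets (3.93%) at an unadjusted p of 0.05, against 3 and 2537. Member sets whose groups did not overlap numbered 12 of 36 as reported (31.2% of all sets), 11 after quantile normalisation (32.9%) or subtraction of array medians (32.5%), 7 of the 17 above the array median (31.6%), where fewer sets were counted, and 19 to 25 of 36 with an array left out (60.9% to 67.3%). The leading set of EREG ran from -0.555 to -0.355 with an array left out, HBEGF from -0.325 to -0.295 and TGFA from 0.135 to 0.195; the lone array is then assumed to vary as the arrays of the other group do. EGFR ran from -0.19 to 0.20. The mean of a gene's sets gave -0.188 for EREG, -0.20 for HBEGF and 0.11 for TGFA; it brings in dimmer sets.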
